A study of Mus musculus with 36 samples.

Results

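The comparison described here followed 5-methylcytosine (5mC) in unoperated mouse knee cartilage from 4 to 12 weeks. Its members were the 6 oxidative bisulfite (oxBS) libraries of the non-operated left leg, 3 taken at 4 weeks and 3 taken at 12 weeks, out of 36 samples in the series, 12 of them oxBS libraries. They were read at the autosomal CpG cytosines that had at least 10 reads in all 6 libraries, which left 1249107 cytosines for testing, 29875 of them with exactly 10 reads in at least 1 library. The mice were male C57BL/6J animals whose right knee was operated at 12 weeks of age, by cutting the ligament that holds the medial meniscus (DMM surgery), which leads to osteoarthritis. The control mice were therefore 16 and 24 weeks old at harvest, and all of them carried an operated knee on the other side. Cartilage cut from the tibia and the femoral condyles of 3 knees was pooled for each library, so a library is a pool of animals, and by the number of animals in the methods the left and right knees came from the same mice. No cartilage of sham-operated or unoperated mice is among the samples used here.

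DNA methylation in mammals sits mostly on cytosines of CpG dinucleotides. DNMT3A and DNMT3B place it and DNMT1, with its cofactor UHRF1, copies it at cell division, whereas the TET enzymes oxidise it to 5-hydroxymethylcytosine (5hmC). CpG-rich promoters are usually free of it, gene bodies and intergenic DNA usually carry it, and stretches of intermediate methylation often differ between cell types or between cells of a tissue. In cartilage the mark is studied because articular chondrocytes divide rarely and keep their phenotype for long periods. Oxidation before bisulfite treatment turns 5hmC into a base that reads as unmethylated, so that oxBS reports 5mC alone, while bisulfite (BS) alone reports 5mC and 5hmC together.

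Sequences around some of the regions described further on are printed first. The stretches show which CpGs were tested at some of the falls and at signalling and cartilage genes, whether or not each CpG changed. They were taken from the RefSeq copy of GRCm38 on the plus strand, with 15 bp on either side of the region, and capitals mark the CpGs that were tested.
Hpse, nearest gene, chr5:100728883-100728989: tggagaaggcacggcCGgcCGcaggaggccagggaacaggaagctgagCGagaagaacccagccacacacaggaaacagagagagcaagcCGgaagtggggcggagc
Meis1, intron, chr11:19007769-19007832: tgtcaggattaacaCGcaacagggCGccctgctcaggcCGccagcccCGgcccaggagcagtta
Meis1, intron, chr11:19015953-19016113: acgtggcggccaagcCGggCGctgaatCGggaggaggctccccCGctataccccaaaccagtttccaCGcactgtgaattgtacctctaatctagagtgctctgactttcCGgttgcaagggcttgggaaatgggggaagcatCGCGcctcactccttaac
Otulin, intron, chr15:27627969-27628114: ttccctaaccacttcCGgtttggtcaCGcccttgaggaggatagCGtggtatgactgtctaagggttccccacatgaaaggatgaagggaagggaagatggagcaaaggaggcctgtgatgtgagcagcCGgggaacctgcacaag
Wnt4, intron, chr4:137286210-137286253: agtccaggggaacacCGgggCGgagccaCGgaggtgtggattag
Sox5, intron, chr6:144171042-144171088: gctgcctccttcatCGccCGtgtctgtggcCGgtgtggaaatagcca
Smad3, coding exon, chr9:63667509-63667582: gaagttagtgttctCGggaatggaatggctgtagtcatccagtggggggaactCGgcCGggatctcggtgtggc
Runx2, intron, chr17:44500385-44500499: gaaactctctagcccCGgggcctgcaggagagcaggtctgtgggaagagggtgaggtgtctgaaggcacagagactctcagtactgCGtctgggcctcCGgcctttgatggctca
Lrp5, intron, chr19:3643964-3644012: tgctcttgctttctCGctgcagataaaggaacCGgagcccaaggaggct

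The libraries were not alike in depth. At the tested cytosines the median coverage was 52, 150 and 45 reads in replicates 1, 2 and 3 of 4 weeks and 55, 31 and 34 reads in those of 12 weeks, so that replicate 2 supplied 60.5% of all reads of the 4-week group. Unconverted cytosines of mitochondrial DNA, a measure of incomplete conversion, made up 0.623%, 0.590% and 0.662% at 4 weeks and 0.324%, 0.320% and 0.319% at 12 weeks. Libraries were converted in pools of 6, and which libraries shared a pool is not given in the sources used here. At 7 of the 327 differentially methylated regions described further on, replicate 2 of the 12-week control libraries and replicate 1 of the 12-week DMM libraries both stood at least 15 points from the other replicates of their group, and these 2 libraries carry titles of another style than the rest. The cartilage label was checked in the RNA libraries of the control limb, which came from other mice. The 28 chondrocyte genes of the list summed to between 33991 and 69838 CPM (counts scaled to the library total) at 4 weeks and to between 21769 and 59722 CPM at 12 weeks. Markers of other tissues were also present, with 24 skeletal muscle genes between 6830 and 21416 CPM at 4 weeks and between 119 and 15997 CPM at 12 weeks, and 23 measured blood and marrow genes between 8029 and 28064 CPM at 4 weeks and between 24945 and 43157 CPM at 12 weeks. In bulk tissue, fewer cells of a type and less signal per cell cannot be told apart.

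Mean 5mC over all cytosines differed between the time points by less than the SD of the 4-week libraries. The library means were 30.0%, 28.3% and 29.0% at 4 weeks and 29.8%, 29.5% and 30.1% at 12 weeks, a difference of 0.692 points (29.1% ± 0.854 against 29.8% ± 0.311, SD, n = 3 each, exact permutation test, two-sided p = 0.3). With 3 libraries against 3 this test cannot give a p below 0.1, so no single mean could pass 0.05. Promoter cytosines, within 1000 bp of a RefSeq start site, were nearly unmethylated at 3.08% ± 0.17 and 2.92% ± 0.0493, whereas introns averaged 56.1% ± 1.98 and 58.1% ± 0.653, exons 55.7% ± 1.29 and 57.1% ± 0.501, and intergenic DNA 55.1% ± 1.31 and 56.4% ± 0.549 (SD, n = 3 each). In each of these classes the libraries of the time points overlapped.

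The spread lay in cytosines of intermediate methylation. At the 89536 cytosines with a mean of 20 to 50% over the 6 libraries, 5mC was 38.9%, 29.2% and 33.8% at 4 weeks and 38.3%, 37.3% and 39.7% at 12 weeks. Replicates 2 and 3 of 4 weeks were lower than any 12-week library there, and replicate 1 lay among them. The difference of 4.48 points was smaller than the SD of the 4-week libraries, 4.88 points (exact permutation test, two-sided p = 0.3). At 80 to 95% methylation the means were 87.6% ± 0.432 and 88.1% ± 0.344 (SD, n = 3 each), and they overlapped. Soft-masked repeats, which hold 95291 tested cytosines, averaged 58.0% ± 0.399 and 58.3% ± 0.334 (SD, n = 3 each) and overlapped as well.

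**Figure D1:**
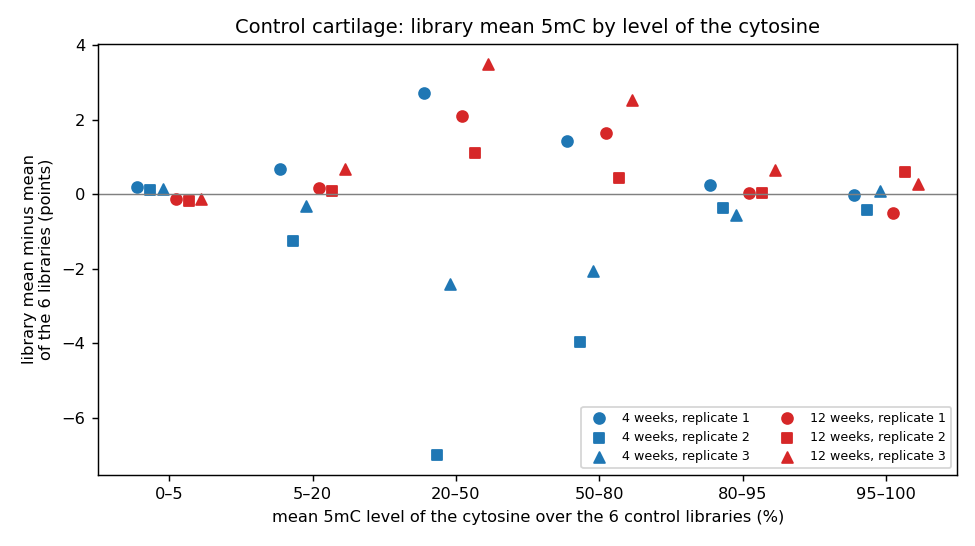
Mean 5mC of each control library minus the mean of the 6 libraries, in percentage points (y axis), for cytosines grouped by their mean level in % (x axis). Circles, squares and triangles are replicates 1, 2 and 3. At 20 to 50%, replicate 2 of 4 weeks had a mean of 29.2% while replicate 1 of 4 weeks and the 12-week libraries lay between 37.3% and 39.7%.

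Across the tested cytosines, 3514 passed a difference of at least 25 points with an adjusted q under 0.05, or 0.281% of those tested (logistic likelihood ratio test on the reads pooled within a time point, Benjamini-Hochberg). Most of these differentially methylated cytosines (DMCs) had more 5mC at 12 weeks, 3105 of them or 0.249% of the cytosines tested, against 409 or 0.0327% with less. The higher DMCs had mean levels of 44.2%, 27.6% and 36.4% at 4 weeks and 65.5%, 53.4% and 67.5% at 12 weeks. The lower DMCs ran 50.9%, 68.4% and 58.6% at 4 weeks against 32.7%, 37.6% and 31.9% at 12 weeks. Replicate 2 of 4 weeks lay farthest from the 12-week libraries in either set, and replicate 1 nearest. The libraries of the time points did not overlap at 58.7% of the DMCs, against 7.82% of all tested cytosines (4.00% with every 12-week library higher and 3.82% with every one lower) and 13.4% of the cytosines with a mean of 20 to 80% (10.5% higher and 2.94% lower), the class that holds 99.3% of the higher and 97.6% of the lower DMCs. Since these levels chose the DMCs, they describe them and test nothing.

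The DMCs rested on reads pooled over libraries, which leaves out the spread between libraries. A fit with an overdispersion term called 0 cytosines at the same thresholds (16589 at an unadjusted p under 0.05), and limma on the log ratios of the 6 libraries also called 0 (64283 at an unadjusted p under 0.05). Few residual degrees of freedom stand behind the overdispersion term, and its count of 0 is not read as a measure of stability. Leaving out replicate 2 of 4 weeks lowered the DMCs to 511, of which 406 were among the 3514, and 977 of the 3514 still reached 25 points. Of the 3514, 3512 had the same sign without it, and the median difference of the higher ones shrank to 20.3 points. Since a difference of 25 points chose these DMCs, a kept sign was largely built in. Without replicate 1 of 4 weeks there were 10032 DMCs, and without replicate 2 of 12 weeks 6135. The share with more 5mC at 12 weeks lay between 86.6% and 90.4% in all 6 of these fits.

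**Figure D2:**
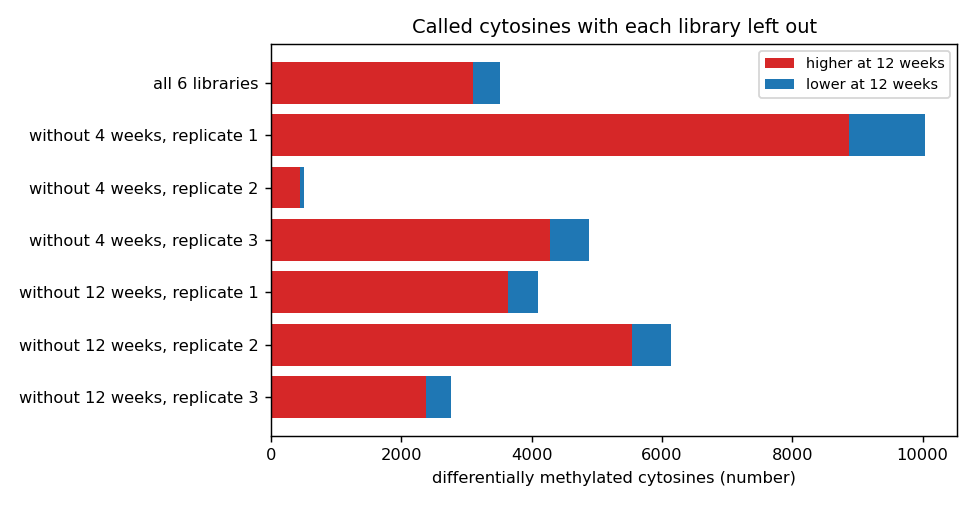
Number of differentially methylated cytosines (x axis) with all 6 control libraries and with each library left out (y axis), split into cytosines higher (red) and lower (blue) at 12 weeks. The number ran from 511 without replicate 2 of 4 weeks to 10032 without replicate 1 of 4 weeks.

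The DMCs lay away from CpG-dense promoters, as did the cytosines of intermediate methylation in general. Introns held 1340 and intergenic DNA 1012 of the 3105 higher DMCs, exons held 589 and promoters 164, or 5.28%, whereas promoters held 50.4% of the tested cytosines. CpG-dense windows of 500 bp held 2.61% of the higher and 7.58% of the lower DMCs, 48.5% of all tested cytosines and 3.93% of the 262813 cytosines with a mean of 20 to 80%. The surrounding windows had a median GC content of 52.0% for the higher and 53.0% for the lower DMCs, close to the 51.2% at cytosines of 20 to 80% and below the 60.6% over all tested cytosines. Their lowest coverage among the 6 libraries had a median of 19 reads for the higher and 18 for the lower DMCs, against 28 over all. The count of DMCs moved with the coverage settings, to 1707 at a coverage of 20 and to 981 with replicate 2 of 4 weeks scaled down to the mean coverage of the other 4-week libraries. It moved to 159 with every library scaled down to the shallowest. Scaling down also lowers the weight of replicate 2 of 4 weeks in the pooled percentages, so depth and weight cannot be told apart in these 2 scaled counts. Every autosome held DMCs, from 0.235% of the tested cytosines on chromosome 1 to 0.352% on chromosome 11.

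Differentially methylated regions (DMRs) were chains of 3 or more tested cytosines, each within 100 bp of the next, whose differences averaged 20 points or more. At least 1 cytosine of the chain also had to pass 25 points at q below 0.01. Of 99865 chains, 327 met this rule, or 0.327%, and 285 of them had more 5mC at 12 weeks and 42 less. They were short, with a median of 4 cytosines over 57 bp in the higher and 50.5 bp in the lower DMRs. The higher DMRs lay in or within 10000 bp of 206 genes and the lower ones of 32 genes. Of the higher and the lower DMRs, 135 and 20 lay wholly in introns, 103 and 16 were intergenic, 37 and 4 touched a coding exon, and 10 and 1 lay within 1000 bp of the start of their gene. The libraries of the time points did not overlap at 202 of the 327 DMRs, or 61.8%, against 18.6% of all chains. Among all chains, 7613 had every 12-week library higher and 10943 every one lower. Since the same libraries chose the DMRs, a larger share in them was built in and tests nothing.

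Averaged over the 285 higher DMRs, the libraries stood at 47.4%, 26.5% and 37.4% at 4 weeks and at 56.3%, 54.9% and 58.9% at 12 weeks. Averaged over the 42 lower DMRs they stood at 45.5%, 66.9% and 55.5% at 4 weeks and at 37.6%, 38.6% and 36.5% at 12 weeks. The 12-week libraries were close together and the 4-week libraries far apart. Replicate 2 of 4 weeks was the one farthest from the 12-week libraries in 266 of the 285 higher and 38 of the 42 lower DMRs. Without that library 9 DMRs were left, 7 of them higher, and without replicate 1 of 4 weeks there were 1523. Leaving out replicate 3 of 4 weeks gave 518 DMRs and leaving out replicate 2 of 12 weeks 507. Of the 29 DMRs named here, all kept their direction without replicate 2 of 4 weeks, but the pooled difference of 12 shrank more than 1.5 times, among them Lrp5 from 20.3 to 6.69 points, Alpl from 22.2 to 11.1, Dnmt1 from 23.0 to 11.8, Tcf7l2 from 27.7 to 14.7, Runx2 from 23.6 to 13.5, Sox5 from 29.0 to 17.4, Gli2 from 20 to 13 and Gcnt2 from -27.4 to -12.5. Frmd4a, Inpp5d, B230217O12Rik and E330035G20Rik were the others. A mean difference of at least 20 points chose the DMRs, so a kept direction was largely built in.

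**Figure D3:**
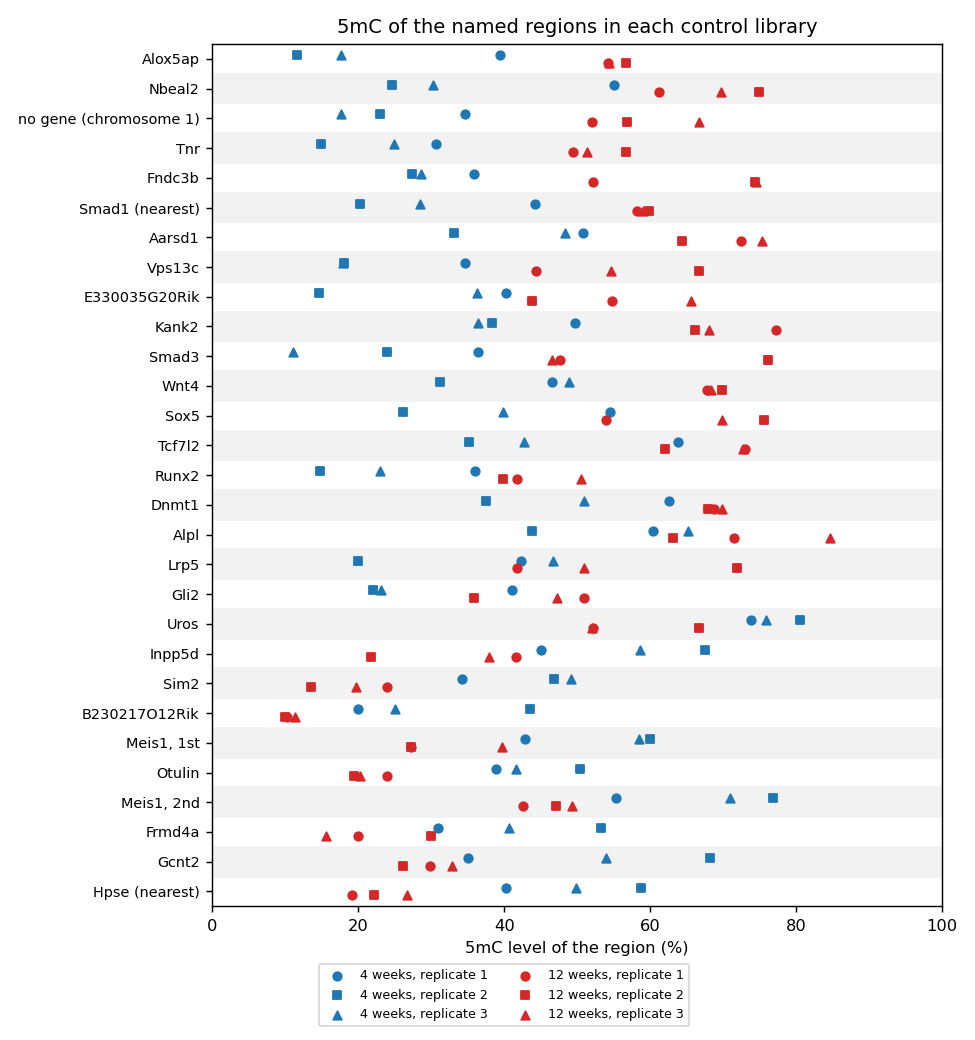
5mC level of each named region in % (x axis) in the 6 control libraries, 4 weeks in blue and 12 weeks in red, ordered by the pooled difference from the largest rise (top) to the largest fall (bottom). Circles, squares and triangles are replicates 1, 2 and 3. The 12-week points lie close together in some regions and apart in others. Near Smad1 the 12-week libraries stand between 58.2% and 59.9% and the 4-week libraries between 20.3% and 44.2%.

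The largest rises, ranked by the difference of pooled reads among the DMRs whose time points did not overlap, touched genes of several kinds. Alox5ap encodes the protein that presents arachidonic acid to 5-lipoxygenase, and a DMR of 3 CpGs over an untranslated exon (chr5:149287849-149287883) had 5mC levels of 39.4%, 11.6% and 17.6% at 4 weeks and 54.3%, 56.7% and 54.4% at 12 weeks. The 12-week libraries lay close to each other, and replicate 1 of 4 weeks was the nearest to them. Nbeal2, needed for platelet granules, had a DMR of 4 CpGs in a coding exon with 55.1%, 24.6% and 30.3% at 4 weeks and 61.2%, 75% and 69.7% at 12 weeks. Fndc3b, a membrane protein of the fibronectin type III family, had an intronic DMR at 35.9%, 27.3% and 28.6% against 52.2%, 74.4% and 74.5%, the widest change of library means at 36.4 points. The others of the 10 largest rises by pooled difference lay in Tnr, Aarsd1, Vps13c, E330035G20Rik and Kank2, near Smad1, and at chromosome 1 with no gene within 10000 bp, and their library means rose by between 24.4 and 33.4 points.

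Growth factor signalling genes came from a list that holds 46 ligands, receptors and effectors of the TGF-beta, BMP, WNT, FGF, IGF and hedgehog pathways, and 5 of them (10.9%) had a DMR. Of all 23794 annotated genes 237 had one (0.996%), counted without regard to gene length or to how many cytosines were tested in a gene. All 5 of these DMRs were higher at 12 weeks, as were 87.2% of all DMRs. Over the gene bodies of the list outside promoters, 33 of 2624 cytosines were DMCs higher at 12 weeks (1.26%) and 3 were lower, against 0.536% higher over the bodies of all genes. The median difference was 0.883 points in the list and 0.968 points over all gene bodies. Smad3 transmits TGF-beta signals in the nucleus, and its DMR of 3 CpGs in a coding exon had 36.4%, 24.0% and 11.1% at 4 weeks and 47.6%, 76.2% and 46.5% at 12 weeks. The groups did not overlap, and 12-week replicate 2 stood above the rest. The same gene held 7 of the 33 higher DMCs, the most of any gene in the list.

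Wnt4, a WNT ligand expressed in developing joints, had an intronic DMR of 3 CpGs with 46.5%, 31.2% and 48.9% at 4 weeks and 67.8%, 69.8% and 68.4% at 12 weeks. No 4-week library reached a 12-week one. Lrp5, a WNT co-receptor, had an intronic DMR at 42.3%, 20% and 46.7% against 41.8%, 71.9% and 51.0%, where the groups overlapped. Tcf7l2, a transcription factor downstream of beta-catenin, stood at 63.8%, 35.2% and 42.7% against 73.0%, 62.1% and 72.8%, and Gli2, a transcription factor of the hedgehog pathway, at 41.1%, 22% and 23.1% against 51.0%, 35.8% and 47.3%. Both overlapped through replicate 1 of 4 weeks. Near Smad1, which carries BMP signals and was named by its size of change and not by the list, the levels were 44.2%, 20.3% and 28.4% against 58.2%, 59.9% and 59.1%.

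Among cartilage and ossification genes, DMRs lay at Sox5 of the 28 chondrocyte genes (3.57%) and at Runx2 and Alpl of the 18 hypertrophy and ossification genes (11.1%), against 0.996% of all annotated genes. Sox5, which acts with SOX9 on cartilage matrix genes, had an intronic DMR of 3 CpGs with 54.5%, 26.2% and 39.8% at 4 weeks and 53.9%, 75.6% and 69.8% at 12 weeks, and the groups overlapped. Runx2, the transcription factor of hypertrophic chondrocytes and osteoblasts, had an intronic DMR at 36%, 14.7% and 23.0% against 41.8%, 39.8% and 50.6%. Here every 12-week library was above every 4-week one. Alpl, the tissue-nonspecific alkaline phosphatase of mineralizing cells, stood at 60.4%, 43.8% and 65.2% against 71.5%, 63.2% and 84.7%, and its groups overlapped. Gene bodies of the chondrocyte list averaged 35.2%, 32.6% and 33.5% at 4 weeks and 35.8%, 36.3% and 36.6% at 12 weeks over 1266 cytosines, and 7 of these were DMCs higher at 12 weeks (0.553%, against 0.536% over all gene bodies). The 23 matrix proteases and inhibitors held no DMR, with 2 higher DMCs of 815 cytosines and list means that overlapped.

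The promoters of the main chondrocyte genes were low at both time points. The Sox9 promoter, for the master regulator of the chondrocyte, had 1.15%, 0.779% and 0.530% at 4 weeks and 0.737%, 0.427% and 0.773% at 12 weeks. Col2a1, the type II collagen gene, had 0.95%, 1.52% and 1.46% against 1.04%, 1.55% and 1.42%, and Acan, the aggrecan gene, 1.93%, 0.901% and 1.26% against 1.89%, 0.796% and 1.27%. In all 3 promoters the groups overlapped. The promoter of Chad, which encodes the matrix protein chondroadherin and was picked after its values were seen, had 11.0%, 10.7% and 10.4% at 4 weeks and 14.3%, 13.1% and 13.7% at 12 weeks, and it did not pass the test across promoters (limma, adjusted p = 0.178).

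The lower DMRs included both DMRs of Meis1, a homeobox transcription factor of proximodistal limb patterning. The first (chr11:19015968-19016098), over 8 CpGs of an intron, had 42.9%, 60.0% and 58.5% at 4 weeks and 27.2%, 27.2% and 39.7% at 12 weeks. The second (chr11:19007784-19007817), over 4 CpGs, had 55.4%, 76.8% and 70.9% against 42.6%, 47.1% and 49.3%. In neither did the groups overlap. Gene bodies of the 24 limb patterning genes held 7 lower and 2 higher DMCs of 1163 cytosines (0.602% lower, against 0.0631% over all gene bodies), and 6 of the 7 belonged to Meis1.

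The largest fall by pooled difference lay 9182 bp from Hpse, the gene of heparanase, which cleaves heparan sulfate, at 40.2%, 58.8% and 49.8% against 19.2%, 22.2% and 26.7%. Otulin, a deubiquitinase of linear ubiquitin chains, had an intronic DMR at 38.9%, 50.4% and 41.6% against 24.0%, 19.4% and 20.2%. Inpp5d, the SHIP1 phosphatase of leukocytes, had 45.1%, 67.6% and 58.6% against 41.6%, 21.7% and 37.9%. The falls, like the rises, were ranked among DMRs whose time points did not overlap, so the lack of overlap at these 3 DMRs was set by the rule. Replicate 2 of 4 weeks was the highest library in each. The other 5 of the 10 largest falls by pooled difference, in Gcnt2, Frmd4a, B230217O12Rik, Sim2 and Uros, had library means lower by 19 to 24.4 points.

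Over 68 promoter cytosines of the blood and marrow markers, 5mC was 16.2%, 23.2% and 20% at 4 weeks and 16.7%, 17.5% and 15.4% at 12 weeks. The promoter of Spi1, the myeloid transcription factor PU.1, stood at 36.1%, 63.5% and 46.4% against 36%, 41.2% and 36.8%, and that of Vav1, a signalling protein of blood cells, at 18.8%, 30.0% and 26.4% against 21.4%, 24.6% and 17.9%. Replicate 2 of 4 weeks was the highest library in all of these, as it was in the mean over the lower DMRs. None of the 4 measured promoters of the list was called, against 15.1% of all promoters, a number too small to set the list apart. Over promoters, the muscle, adipocyte, osteoclast, endothelium and synovium and fibroblast lists overlapped between the time points. The erythroid list, at 4.37%, 5.59% and 4.58% against 3.98%, 4.03% and 3.87%, did not, and neither did the hypertrophy, growth signalling, methylation enzyme, circadian and other lineage lists or 42.1% of all promoters. Over gene bodies, the osteoclast list had the widest change of these at 6.15 points, against 1.78 points over all gene bodies, with 63.1%, 51.4% and 56.9% against 62.2%, 62.5% and 65.1%, and 5 of its 166 cytosines were higher DMCs (3.01%, against 0.536% over all gene bodies), all in Nfatc1. The part of the cell mixture in the DMRs was not tested.

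BS libraries of the same control DNA gave a smaller difference at the DMRs. At the 283 higher DMRs measured by BS, the libraries averaged 54.6%, 36.7% and 46.3% at 4 weeks and 54.1%, 52.2% and 56.8% at 12 weeks, and 270 of the 283 changed in the direction seen by oxBS, with a median difference of 8.62 points. At the 42 lower DMRs BS gave 48.7%, 70.9% and 59.2% against 47.1%, 49.6% and 44.5%, and 41 kept the direction. No share over all chains by BS is given here, so neither count of directions sets the DMRs apart. Replicate 1 of 4 weeks fell among the 12-week libraries in the higher DMRs. BS and oxBS were split from the same libraries, so they repeat the measurement and not the animals. Over all cytosines measured by both, BS stood above oxBS by 1.66, 2.68 and 2.23 points at 4 weeks and by 1.54, 1.63 and 1.42 points at 12 weeks, the part of the signal that is 5hmC together with errors of conversion. At the higher DMCs this gap was 11.0, 13.7 and 12.7 points at 4 weeks and -3.64, 0.553 and -3.38 points at 12 weeks. At the lower DMCs it was 0.166, 2.69 and 2.11 points against 13.1, 14.4 and 11.5 points. The oxBS values within this gap also chose the DMCs, so nothing is read from its change.

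In the DMM limb, the higher DMRs of the control limb averaged 34.4%, 22.8% and 28.1% at 4 weeks and 33.7%, 40.2% and 36.5% at 12 weeks over the 268 that could be measured. The 4-week libraries had the order of the control limb, with replicate 1 highest and replicate 2 lowest, and replicate 1 lay among the 12-week libraries. All 6 DMM libraries stood below the 12-week control libraries, whose own values chose the DMRs. Of the 268 DMRs, 256 had more 5mC at 12 weeks in the DMM limb too, with a median difference of 8.25 points, and 39 of the 40 measured lower DMRs had less. No share over all chains, or over chains of intermediate methylation, is given for the DMM limb here, so these counts do not set the DMRs apart. Averaged over the lower DMRs, the DMM libraries stood at 57.6%, 71.4% and 64.9% against 58.1%, 54.6% and 53.4%.

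Single DMRs varied more between readouts. At the first Meis1 DMR, BS of the control limb gave 43.1%, 68.8% and 55% at 4 weeks and 42.8%, 51.6% and 34.8% at 12 weeks, and oxBS of the DMM limb gave 50.7%, 72.3% and 64.6% against 54.4%, 52.9% and 54.4%. Both readouts overlapped there. At the Hpse DMR the DMM limb had 50.9%, 65.7% and 60.9% at 4 weeks and 39.8%, 32.1% and 48.9% at 12 weeks, and BS of the control limb 32.9%, 58.2% and 39.1% against 24.8%, 30.8% and 19.7%. Neither readout overlapped there, and the 12-week libraries were lower in both. At the Otulin DMR the DMM limb had 39.0%, 41.0% and 44.2% against 38.6%, 46.4% and 39.3%, with overlap. At the Wnt4 DMR the DMM limb had 50.5%, 24.6% and 46.2% against 35.4%, 53.3% and 45.1%, and at the Smad3 DMR 10.2%, 27.6% and 20% against 43.8%, 40% and 23.6%. These also overlapped. Of the 24 named DMRs measured in the DMM limb, 4 had time points that did not overlap, at Hpse, Alox5ap, Inpp5d and Tcf7l2 (16.7%, against 22.4% of all 308 measured DMRs). By BS of the control limb these were 6 of 29 (20.7%, against 20.3% of 325), and all of them kept the direction of the control oxBS libraries.

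Tested by itself with the same rule, the DMM limb had 129 called of 1260305 cytosines tested, 73 of them higher and 56 lower at 12 weeks. Among the 2728 higher DMCs of the control limb that were measured, 30 were called higher in the DMM limb, or 1.10%, and none lower. Over all cytosines tested in both limbs 0.00510% were called higher and 0.00410% lower. Among 336 lower DMCs, 14 were called lower in the DMM limb and none higher. Of the higher DMCs, 80.9% had a positive difference in the DMM limb, against 41.7% of all cytosines. The shares over all cytosines are no matched background. In the control limb 700523 of the 1249107 tested cytosines had a mean of 0 to 5%, whereas 99.3% of the higher DMCs had one of 20 to 80%. No share for that class in the DMM limb is given here. The limbs came from the same mice, so these values do not repeat the animals. Unconverted mitochondrial cytosines of the DMM oxBS libraries also split by time point. They made up 0.627%, 0.530% and 0.742% at 4 weeks and 0.351%, 0.284% and 0.350% at 12 weeks. Which libraries shared a conversion pool is not given, so time and conversion cannot be told apart in either limb or by BS.

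**Figure D4:**
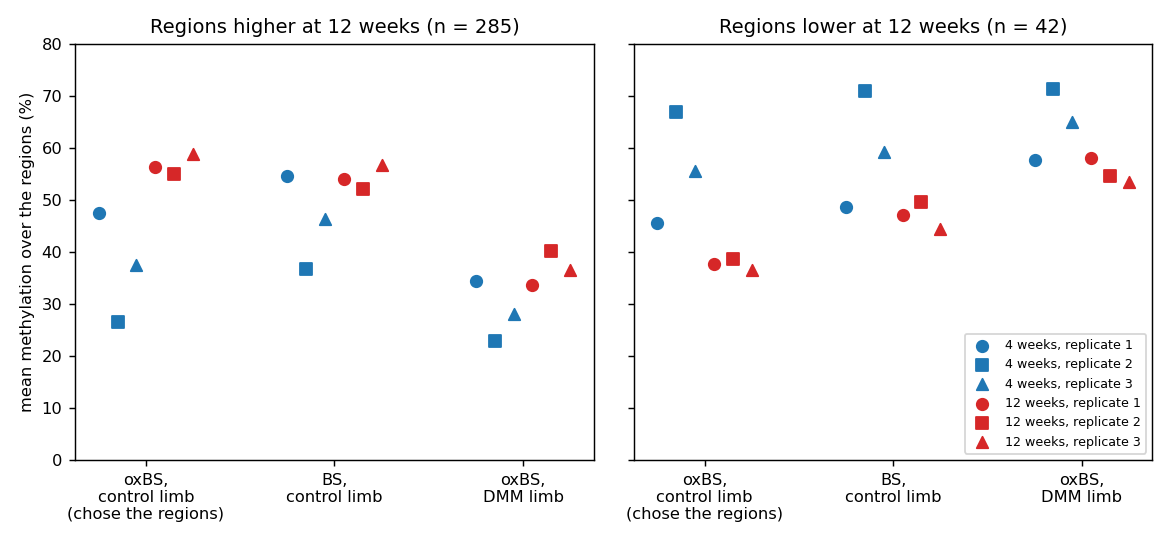
Mean methylation in % (y axis) over the regions called higher (left) and lower (right) at 12 weeks, in the oxBS and BS libraries of the control limb and the oxBS libraries of the DMM limb (x axis). Each point is a library, 4 weeks in blue and 12 weeks in red, with circles, squares and triangles for replicates 1, 2 and 3. The regions were measured in 283 and 42 (BS) and 268 and 40 (DMM limb) cases. Within each panel the order of the 4-week replicates was the same in each readout, for example 47.4%, 37.4% and 26.5% for replicates 1, 3 and 2 in the higher regions by oxBS.

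Promoter 5mC was tested for 14440 genes with at least 5 tested cytosines, with limma on the log2 ratio of methylated to unmethylated reads (pseudocount 0.5). A total of 2179 promoters passed an adjusted p under 0.05, or 15.1%, 2162 of them lower (15.0%) and 17 higher (0.118%) at 12 weeks. The change was small, with a median of -0.430 points in the lower ones and -0.281 points over all promoters tested (-0.53 on the log2 ratio scale), and 2170 of the 2179 had a mean level under 2%. Libraries of the time points did not overlap at 42.1% of all promoters. The same shift was seen at the 700523 cytosines with a mean of 0 to 5%, with 0.978%, 0.904% and 0.932% at 4 weeks and 0.65%, 0.620% and 0.664% at 12 weeks. The unconverted mitochondrial cytosines given above moved with it, and they were lower at 12 weeks in the BS libraries of the control limb (0.642%, 0.582% and 0.727% against 0.301%, 0.364% and 0.353%) and the oxBS libraries of the DMM limb too. After each library's mitochondrial level was subtracted, 0 promoters were called by limma (848 at an unadjusted p under 0.05, median 0.17 on the log2 ratio scale). None were called either with a pseudocount of 5 (3336 at an unadjusted p under 0.05), on the percentage scale (4816) or without any 1 of the 4-week libraries (4032 to 4386), and 863 were called without replicate 1 of 12 weeks.

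**Figure D5:**
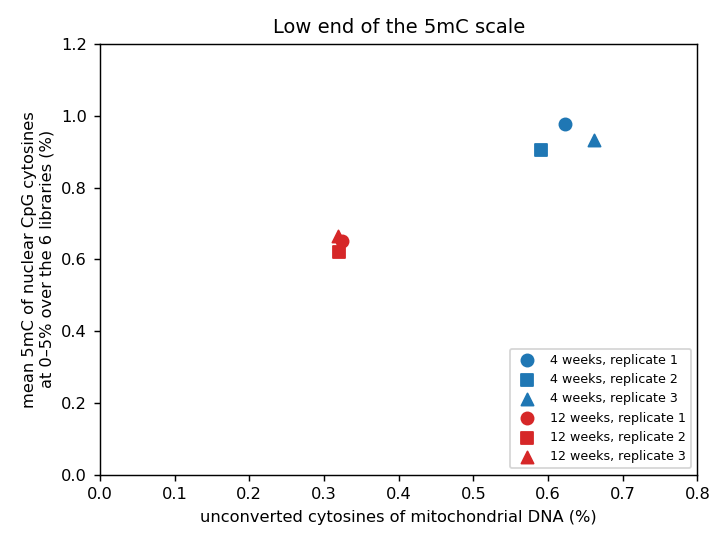
Mean 5mC in % of the nuclear cytosines with a mean of 0 to 5% (y axis) against the unconverted cytosines of mitochondrial DNA in % (x axis) in the 6 control oxBS libraries. Circles, squares and triangles are replicates 1, 2 and 3. The 4-week libraries (blue) lie at 0.590% to 0.662% and the 12-week libraries (red) at 0.319% to 0.324% on the x axis, with no overlap on either axis.

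Away from this floor few promoters moved. Of the 2326 promoters with a mean of at least 5%, 5 were among the calls, 4 higher and 1 lower, and 0 passed when limma was run on these promoters alone (173 at an unadjusted p under 0.05). The largest rise was that of Trap1, a mitochondrial chaperone of the HSP90 family, whose 6 promoter cytosines had 47.0%, 30.7% and 32% at 4 weeks and 59.8%, 51.5% and 63.6% at 12 weeks, a log2 ratio difference of 1.33 ± 0.35 (SE, limma adjusted p = 0.0448). These 6 cytosines were also called as a DMR, so both calls rest on the same reads. Evc2, a ciliary protein that positively regulates hedgehog signalling and is needed for skeletal growth, had 12.5%, 6.13% and 6.88% against 18.6%, 19.5% and 19.2% (1.85 ± 0.40, SE, limma adjusted p = 0.0353). Gli1, a transcription factor and target of the hedgehog pathway, lay near the floor. Its 6 cytosines had 0%, 0.325% and 0.450% against 1.38%, 3.33% and 2.11% (limma adjusted p = 0.0448), with as few as 106 reads in a library. In these 3 promoters every 12-week library was above every 4-week one. The others of the 10 largest rises, D130017N08Rik, Galntl6, Ccr10, Itga11, Rsph1, Fut4 and BC030500, changed by 1.23 to 4.28 points, and Galntl6 and BC030500 share cytosines. The rise of Fut4 turned into a fall in a window of 500 bp and at a coverage of 20.

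The largest fall was that of Pdyn, the gene of the opioid precursor prodynorphin, with 7.20%, 5.46% and 10.2% at 4 weeks and 3.18%, 3.0% and 2.62% at 12 weeks (limma adjusted p = 0.0369). Abcd2, Pde4b, Leng9, Tmem44, Gprc5a, Gtf3a, Hmx2, Duox2 and Dmac2 followed with falls of 1.10 to 1.74 points, all at means under 3%. Members of the gene lists that were called lay at the same floor and were lower at 12 weeks apart from Gli1. Those reported here were Trps1 of the chondrocyte list, Vegfa of the hypertrophy list, Bmpr1a, Igf1r, Lrp6, Smad3, Smad6 and Tcf7l2 of growth signalling, Meis1, the clock genes Clock, Dbp and Nr1d2, and Mylpf of muscle, with differences between -0.323 and -0.651 points. Of the 44 measured promoters of growth signalling 15.9% were called and of the 16 of the chondrocyte list 6.25%, against 15.1% of all. No promoter of any kind was called after the mitochondrial level was subtracted. That none of these 33 called promoters remained called follows from this and is no result about them singly.

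Some imprinted genes carry promoter methylation on the chromosome of 1 parent. Over 1153 promoter cytosines the list of imprinted genes averaged 22.2%, 20.5% and 20.6% at 4 weeks and 21.1%, 21.1% and 20.2% at 12 weeks. Single promoters of the list differed widely, with 4-week means of 0.981% at H13, 1.04% at Phlda2 and 89.5% at Fkbp6. The Snrpn promoter had 48.1%, 48.2% and 41.5% against 42.9%, 51.8% and 45.1%, that of Peg3 49.1%, 49.5% and 42.9% against 50.3%, 43.9% and 44.0%, and that of H19 46.3%, 49.2% and 48.7% against 41.1%, 44.1% and 46.6%. All 3 overlapped between the time points, and none of the 28 measured promoters of the list was called, against 15.1% of all promoters. Most promoters of the list had means above 2%, whereas 2170 of the 2179 called promoters had a mean under 2%. Only 5 of all 2326 promoters with a mean of at least 5% were called, so the count does not set the list apart. In gene bodies of the list, 4 of 615 cytosines were higher DMCs (0.65%, against 0.536% over all gene bodies) and none were lower, and the bodies averaged 46.9%, 40.9% and 42.9% against 45%, 45.6% and 46.0%, with overlap. Igf2r, the receptor that takes up IGF2, had 38.5%, 33.7% and 34.4% over the gene at 4 weeks and 40.4%, 39.4% and 39.9% at 12 weeks, without overlap, and Airn, an antisense RNA gene that overlaps it, had 33.7%, 30.3% and 30.1% against 36.6%, 34.8% and 35.6%, also without overlap. Of the imprinted genes, Mcts2 had the widest spread at 4 weeks, where replicate 2 had 41.3% and the other libraries of both time points 52.3% to 63.8%. H13 came next, and its values are given at the end. Genes used in DNA methylation age predictors and senescence genes, 12 in all, held no DMC in gene bodies (of 265 cytosines, against 0.536% higher and 0.0631% lower over all gene bodies) and no called promoter (of 12, against 15.1% of all), counts too small to set the list apart, with promoter means of 2.34%, 2.09% and 2.38% against 2.02%, 2.03% and 2.42%. Lineage factors of other tissues likewise had no DMC in 2767 gene body cytosines, and their bodies had 13.1%, 13.2% and 13.2% at 4 weeks against 13%, 12.7% and 12.9% at 12 weeks, without overlap. Of the higher DMCs 99.3% and of the lower 97.6% had a mean of 20 to 80%. The absence of DMCs at the low level of this list therefore does not set it apart.

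RNA levels in the control limb, from other mice, are given beside the methylation and were not tested. Among 16965 genes with at least 10 counts in all, the libraries of the time points did not overlap for 25%. Of the DNA methylation enzymes, 4 of 9 were higher in every 12-week library, namely Dnmt3a, Dnmt3l, Uhrf1 and Tet3, against 13.5% of all genes. Uhrf1 had 20.6, 39.1 and 59.3 CPM at 4 weeks and 98.9, 67.5 and 84.7 CPM at 12 weeks. Dnmt3a, a methyltransferase of unmethylated DNA, had 30.3, 25.4 and 32 CPM against 36.3, 33.0 and 39.8 CPM, and Tet3, a TET dioxygenase, 17.0, 16.9 and 20.2 CPM against 27.2, 23.4 and 21.9 CPM. Dnmt1 overlapped at 34.7, 60.9 and 88.9 CPM against 139, 60.2 and 115 CPM, and its gene held an intronic DMR at 62.6%, 37.5% and 51.0% 5mC against 68.7%, 68.0% and 69.9%. The myeloid gene Spi1 was higher in every 12-week library as well, from 43.6, 81.4 and 125 CPM to 193, 136 and 185 CPM. It was among the 7 of 23 blood and marrow genes that were, against the same 13.5% of all genes. The part of the cell mixture in the enzyme levels was not tested.

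Of the 26 genes with a named DMR and RNA counts, 5 had RNA levels that did not overlap, or 19.2%, below the 25% of all genes, so the count is no result about these genes. Meis1, with less 5mC at 12 weeks, had 5.27, 5.99 and 7.89 CPM at 4 weeks and 9.13, 8.45 and 11.8 CPM at 12 weeks. Otulin, also with less 5mC, had 27.6, 29.1 and 29.2 CPM against 6.13, 7.00 and 9.72 CPM. Wnt4, with more 5mC, had 4.56, 2.32 and 2.31 CPM against 0.852, 0.781 and 1.08 CPM. Lrp5 had 7.17, 6.17 and 5.81 CPM against 4.84, 4.38 and 4.17 CPM, and Fndc3b 62.4, 75.8 and 60.1 CPM against 57.3, 55.8 and 39.3 CPM. No relation between 5mC and RNA is read from these 5 genes. Inpp5d and Alox5ap overlapped, with 21.7, 49.5 and 81 CPM against 93.1, 41.9 and 89.4 CPM for Inpp5d. Sox5, Runx2, Smad3, Smad1, Gli2, Tcf7l2 and Alpl had RNA levels that overlapped, as did Trap1, Evc2 and Gli1 among the promoters.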

How the data were processed

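Groups were taken from the deposited labels. The authors digested DNA with MspI, split pools of 6 libraries into oxidised and mock-oxidised parts and called methylation. CASAVA 2.17, Bismark and mm10 are named per the labels. The deposited files hold the read count (coverage) and the percent methylated of each cytosine. For RNA the authors deposited raw counts per transcript, here converted to CPM with the most abundant transcript of each gene. Positions were checked against GRCm38 and 7 that were no CpG were left out. Methylated reads were coverage times percent. Tests ran in Python 3.11.15 with numpy 2.4.6 and scipy 1.17.1 and in R 4.3.3 with limma 3.58.1 (robust empirical Bayes), and were tested on simulated data. Libraries of a time point differed by chi-square values of 1.11 to 1.93 per cytosine, where counting error alone gives 1. Depth limits each value, and PCR reads are not independent molecules.

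Named regions were the 10 largest rises and falls among DMRs without overlap and all DMRs at list genes, and named promoters the 10 largest called differences each way and called list genes. Imprinted genes, Sox9, Col2a1, Acan and the methylation enzymes were named as levels. Other coverage minimums, thresholds, windows, pseudocounts, scalings and libraries left out were tried as alternatives. Members and lists were chosen with earlier results of these data known. The replicate numbers did not pair the libraries. A few results that the naming rule covers are not reported here.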

Additional observations from a re-analysis of the deposited data

How the results depend on the processing

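The 3514 DMCs became 1707 at a coverage of 20, 2018 with unweighted means, 11001 at a difference of 20 points, 159 with coverage scaled down to the shallowest library and 981 with replicate 2 of 4 weeks scaled down alone, an alternative chosen after seeing the data. They became 0 with overdispersion correction (16589 at an unadjusted p under 0.05) and 0 with limma (64283), and the overdispersion 0 is not read as a measure of stability. Leaving out 1 library gave 511 to 10032 DMCs. The 327 DMRs became 82 at a mean of 25 points, 4 with scaled coverage, 0 with overdispersion correction and 9 to 1523 with 1 library left out. The 2179 promoters became 1348 in a window of 500 bp and 0 with a pseudocount of 5, on the percentage scale, after subtraction of the mitochondrial level and at means of at least 5%, the last pair chosen after seeing the data, and 0 to 1901 with 1 library left out. Fut4 reversed to -0.50 in the 500 bp window and to -0.45 at a coverage of 20. Of the 129 calls in the DMM limb, 44 were control DMCs called in the same direction. These 44 became 10 at a coverage of 20 and 0 with overdispersion correction (8978 at an unadjusted p under 0.05 in the DMM limb). Mean 5mC kept its direction, from 0.307 to 1.15 points with 1 library left out. The cause of these changes was not tested beyond what each setting alters.

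With the replicate number as a block there were 1666 DMCs, 103 DMRs and 0 promoters (5241 at an unadjusted p under 0.05). Deviations of libraries with the same number correlated at -0.02, 0.06 and -0.00, so the numbers did not pair the libraries. The named DMRs kept their direction in every alternative computed for them.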

Other observations

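The following values were singled out after they were seen. At 7 of the 327 DMRs, 5 called higher and 2 called lower, control replicate 2 and DMM replicate 1 of 12 weeks both stood at least 15 points from the other 12-week replicates of their limb, and on the same side. The same was seen at 1 DMR for control replicate 2 with DMM replicate 2 and at 0 for each of the other 7 pairings of a control with a DMM replicate. At the Mutyh coding exon the control libraries had 57.6%, 59.7% and 59.6% at 4 weeks and 94.6%, 52.1% and 96% at 12 weeks, and the DMM libraries 56.8%, 55.2% and 60.7% against 54.3%, 93.7% and 93.3%. At the Spryd3 coding exon the 12-week libraries had 89.2%, 57.0% and 84.8% in the control limb and 37.4%, 77% and 78.4% in the DMM limb. Of the lower pair, both intergenic and in soft-masked repeats, chr12:119011926-119011971 had 65.2%, 89.4% and 65.3% in the control limb and 84.2%, 67.7% and 65.7% in the DMM limb at 12 weeks, and chr13:87185731-87185776 had 64.7%, 91.7% and 64.8% against 86.5%, 64.7% and 65.3%. In these 4 DMRs the library apart lay nearer to the 4-week libraries of its limb than the others did. BS libraries of the control limb gave the same split at Mutyh, with 93.9%, 77% and 98.4% at 12 weeks. Titles of control replicate 2 and DMM replicate 1 share a style unlike that of the others.

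At the imprinted gene H13, cytosines of the gene body and promoter averaged 46.2%, 26.1% and 35% at 4 weeks and 41.1%, 39.7% and 42.5% at 12 weeks, and at Nr1d1, a repressor of the circadian clock, 16.3%, 6.42% and 11.7% against 14.4%, 13.5% and 14.7%. Both gave replicate 2 of 4 weeks the lowest level.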
